A study of Homo sapiens with 2 samples.

Results

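The clustered protocadherin genes lie side by side on human chromosome 5q31, in an alpha, a beta and a gamma cluster. The members were the protein-coding genes of the RefSeq table whose symbol starts with PCDHA, PCDHB or PCDHG followed by a number, A, B or C. There were 53 of them among the 19974 protein-coding genes of the autosomes and X, with 15 in the alpha, 16 in the beta and 22 in the gamma cluster. The measurement was a list of LDB1 peaks in NB4 cells, a line from a human acute promyelocytic leukaemia with the PML::RARA fusion. The peaks were made by CUT&Tag, in which an antibody brings a transposase to its target so that nearby DNA is cut and tagged. The series held 1 library with an LDB1 antibody and 1 with IgG, both from untreated NB4 cells and neither with a replicate, and IgG values were not analysed here. The deposited list gave a position and a width for each of 53742 peaks, so the depth behind a peak was unknown, and a width is not a binding strength. Whether the IgG library served as the peak caller's control is not given in the sources used here.

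Protocadherins are adhesion proteins of the cell surface, best known in neurons, where each cell displays its own combination of them. Each alpha and gamma gene begins with a large variable exon of its own, which encodes the outside of the protein, the membrane span and the first part of the tail, and is spliced to constant exons that all genes of the cluster share. Beta genes have no constant exons. In neurons, promoter choice involves DNA methylation, the factor CTCF and the cohesin ring, which join chosen promoters to distant enhancers, and CTCF sites are known at promoters and, in alpha genes, also inside the variable exon. LDB1 is an adaptor protein that pairs with itself and links factors at distant sites, with GATA and LMO proteins among its partners in blood cells. Neither CTCF binding nor expression was measured in these libraries.

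LDB1 peaks were laid out along the 3 clusters gene by gene. The span of the members plus 100 kb to either side (chr5:140686140-141612975, hg38, counted from 1) held 63 peak midpoints, of 52765 on chromosomes 1 to 22 and X. The gamma cluster held 27, the alpha cluster 17 and the beta cluster 13, which comes to 14.8, 7.52 and 6.57 peaks per 100 kb. This order depended on the width limit: of the widest 50% of all peaks the gamma cluster held 16, the alpha cluster 16 and the beta cluster 11, and of the widest 25% they held 5, 12 and 6. The flank before PCDHA1 held 3 peaks and the flank after the gamma cluster 2. The 39.0 kb between the alpha and beta clusters held 0 peaks, and the 81.1 kb between the beta and gamma clusters held 1. Of the 57 peaks inside the clusters, 54 lay either at the start of a gene or 1 to 2.5 kb downstream of the start of a gene or pseudogene, and 3 lay elsewhere. The share of the cluster length that these stretches cover was not worked out, so this count has no background beside it. Gene starts lie close together, and the 1 to 2.5 kb stretch was chosen after the peak positions were seen.

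**Figure D1:**
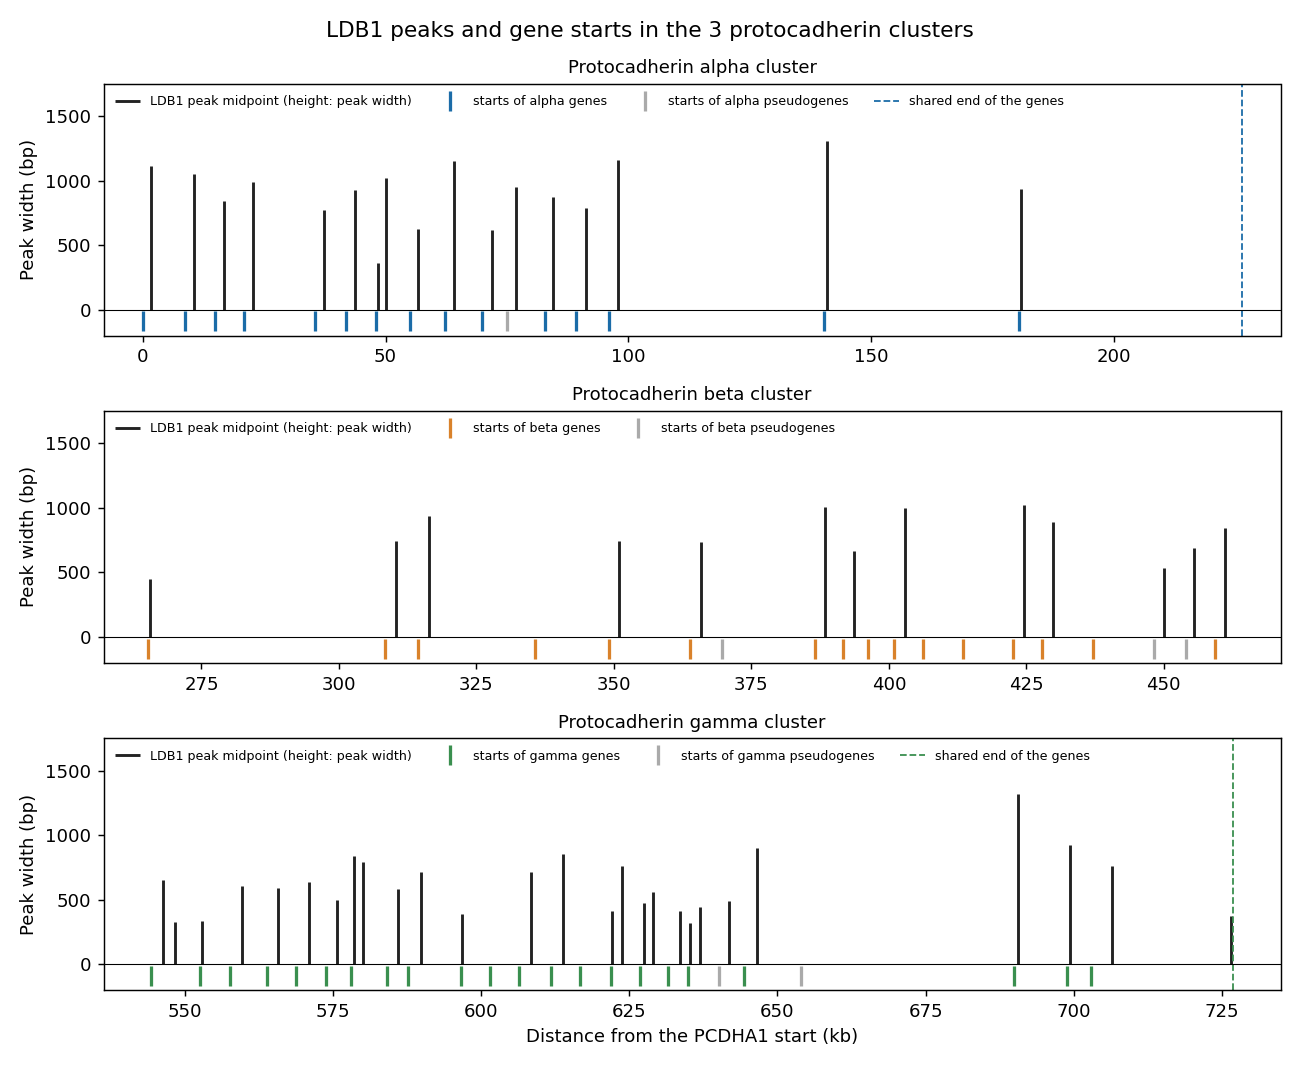
LDB1 peaks (black lines, height is peak width in bp) and gene starts (coloured ticks; grey ticks are pseudogenes) along the alpha, beta and gamma clusters, by distance from the PCDHA1 start in kb; dashed lines mark the shared end of the alpha and of the gamma genes. The 13 alpha genes PCDHA1 to PCDHA13 each have a peak a short way after their start, while the stretch that leads to the shared alpha end holds none.

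Most members carried a peak inside the gene, about 2 kb after the start, and not at the start itself. A peak midpoint lay 1 to 2.5 kb downstream of the start of 38 of 53 members (71.7%, exact 95% interval 57.7 to 83.2%), where 8.51% of 15819 protein-coding genes with a known strand had one. This stretch was chosen after the peak positions were seen. At the start itself, taken as 1 kb to either side, 12 of 53 members had a peak midpoint (22.6%, 12.3 to 36.2%), against a background of 31.8% of the 15819 genes. These intervals cover counting error within this list only and treat genes that are related copies as independent. In the 1 to 2.5 kb upstream of the start, 3 members (5.66%) and 4.65% of the 15819 genes had a midpoint. No member had a midpoint in the 1 kb before its start, and none had one 1 to 1.5 kb after it. The 500 bp bin from 1.5 to 2 kb held a midpoint for 24 members (45.3%) and the bin from 2 to 2.5 kb for 14 (26.4%), against 2.81 and 2.12% of all protein-coding genes. Among the 15819 genes the fullest bin was the first 500 bp after the start, with 15.2%, and the members had 15.1% there.

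**Figure D2:**
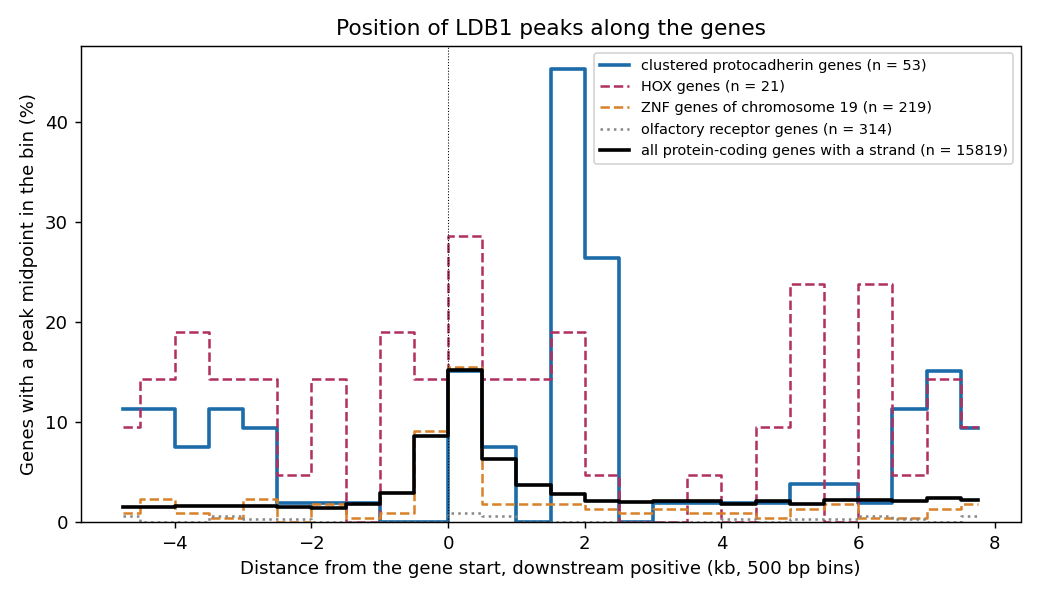
Share of genes (%) with an LDB1 peak midpoint in each 500 bp bin, by distance from the gene start in kb with downstream positive, for the 53 clustered protocadherin genes, 21 HOX genes, 219 ZNF genes of chromosome 19, 314 olfactory receptor genes and 15819 protein-coding genes. The protocadherin line peaks at 45.3% between 1.5 and 2 kb, while the line of all protein-coding genes peaks at 15.2% in the first 500 bp.

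Other families of tandem genes gave different values, which are set here beside the members without a test. These families were chosen after the member values were seen, and only genes with a known strand were counted. Of 21 HOX genes, which encode factors of body patterning, 8 had a midpoint 1 to 2.5 kb downstream (38.1%) and 13 had one at the start (61.9%). Of 219 ZNF genes of chromosome 19, which encode zinc finger proteins, 10 had a downstream midpoint (4.57%) and 60 had one at the start (27.4%). Of 314 olfactory receptor genes, which encode odour sensors and are silent in most cell types, 0 had a downstream midpoint and 5 had one at the start (1.59%).

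In the alpha cluster a downstream peak was present at every alternate gene. All of PCDHA1 to PCDHA13 had a downstream peak, with midpoints 1592 bp (PCDHA8) to 2132 bp (PCDHA10) after the start and a median of 1816 bp. PCDHA1, the first gene of the cluster, had a peak of 1109 bp with its midpoint at 1816 bp. PCDHA9 had one of 1152 bp at 1801 bp, and PCDHA13, the last of the alternate alpha genes, had one of 1160 bp at 1924 bp. The near edge of these 13 peaks lay 1226 to 1825 bp after the start and the far edge 1904 to 2504 bp after it, so none of them reached back to a start. PCDHA7 alone among the 13 also had a peak at the start, of 359 bp with its midpoint at 324 bp.

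**Figure D3:**
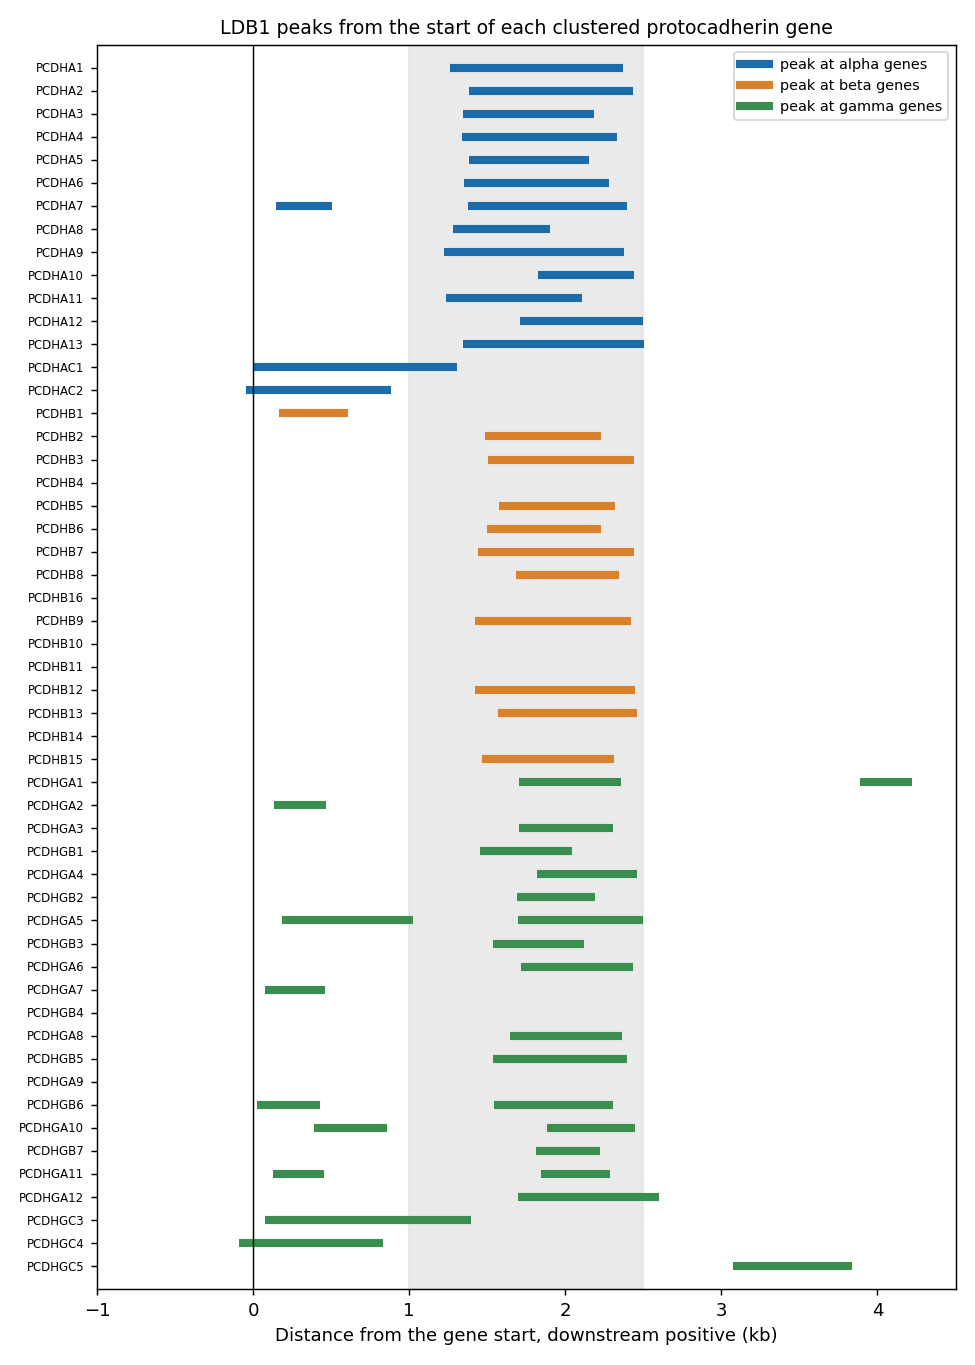
Extent of each LDB1 peak from the start of each of the 53 clustered protocadherin genes in genome order, by distance from the start in kb with downstream positive; bars run from the start to the end of a peak, peaks that lie past the next gene start are left out, and the grey band marks 1 to 2.5 kb. The midpoints of 38 bars lie inside the band. Those of PCDHAC1, PCDHAC2, PCDHGC3 and PCDHGC4 lie 370 to 734 bp after the start, and the bars of PCDHAC1 and PCDHGC3 reach into the band.

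Of the 16 beta genes, 10 had a downstream peak, with midpoints from 1858 bp (PCDHB2) to 2014 bp (PCDHB8 and PCDHB13) and a median of 1937 bp. The 10 peaks ended 402 to 2599 bp before the end of their gene, and so lay within it. PCDHB15, the last gene of the cluster, had a peak of 847 bp at 1889 bp. PCDHB12 had the widest, of 1022 bp at 1934 bp. PCDHB1, the first gene, which stands apart from the rest of the cluster, had a peak of 446 bp at 386 bp and none downstream. The other 5 genes, PCDHB4, PCDHB16, PCDHB10, PCDHB11 and PCDHB14, had a midpoint neither at the start nor 1 to 2.5 kb after it. Relative to the start, with negative values before it, the nearest midpoint lay at -2583 bp for PCDHB16, -3269 bp for PCDHB10 and 15335 bp for PCDHB4.

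By the full list, peaks lay more densely in the gamma cluster. They were also narrower by their median (590 bp, against 935 bp in the alpha and 742 bp in the beta cluster). The gamma cluster held more genes in less length, 22 in 182 kb, against 15 in 226 kb (alpha) and 16 in 198 kb (beta). Genes of subtypes A and B alternate in the gamma cluster, and 9 of 12 gamma A and 6 of 7 gamma B genes had a downstream peak. The midpoints lay 2004 to 2167 bp after the start in gamma A genes (median 2075 bp) and 1747 to 2019 bp in gamma B genes (median 1933.5 bp), so the ranges overlapped narrowly. PCDHGA1, the first gene, had its peak of 655 bp at 2029 bp, PCDHGA12 had 903 bp at 2151 bp and PCDHGB5 had 857 bp at 1966 bp. A peak at the start was found at 6 of the 19, and 4 of these 6 (PCDHGA5, PCDHGB6, PCDHGA10 and PCDHGA11) had a downstream peak as well. PCDHGA2 and PCDHGA7 had one at the start alone, of 334 bp at 299 bp and 388 bp at 269 bp. PCDHGB4 and PCDHGA9 had neither. An additional peak of 331 bp lay 4056 bp after the PCDHGA1 start.

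The C-type genes, which close the alpha and gamma clusters and are expressed more evenly among neurons than the alternate genes, differed in layout from the other members. By midpoint, no downstream peak was found at the 5 C-type genes, and 4 of them had a peak at the start. The start peaks of PCDHAC1 and PCDHGC3 ran past 1 kb and so reached into the 1 to 2.5 kb stretch. PCDHGC3 had the widest peak of the whole interval, of 1318 bp with its midpoint at 734 bp, and PCDHAC1 the next, of 1305 bp at 656 bp. PCDHAC2 had 935 bp at 419 bp and PCDHGC4 had 925 bp at 370 bp. For PCDHGC5, the last gene of the gamma cluster, the nearest midpoint lay 3454 bp after the start, in a peak of 760 bp. The 3 widest peaks after those of PCDHGC3 and PCDHAC1 were the downstream ones of PCDHA13, PCDHA9 and PCDHA1.

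Peaks at the C-type starts were wider than the start peaks of the other members. The 4 C-type start peaks ranged from 925 to 1318 bp (median 1120 bp), and the 8 start peaks of other members from 324 to 838 bp (median 399 bp), with no overlap between them. The widest of the 8 was at PCDHGA5. Downstream peaks had a median of 928 bp in alpha genes (616 to 1160 bp), 870.5 bp in beta genes (666 to 1022 bp), 655 bp in gamma A genes (444 to 903 bp) and 587.5 bp in gamma B genes (412 to 857 bp), and these ranges overlapped. The interval as a whole had a median of 740 bp, and all peaks on chromosomes 1 to 22 and X had 550 bp (quartiles 408 and 816 bp).

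**Figure D4:**
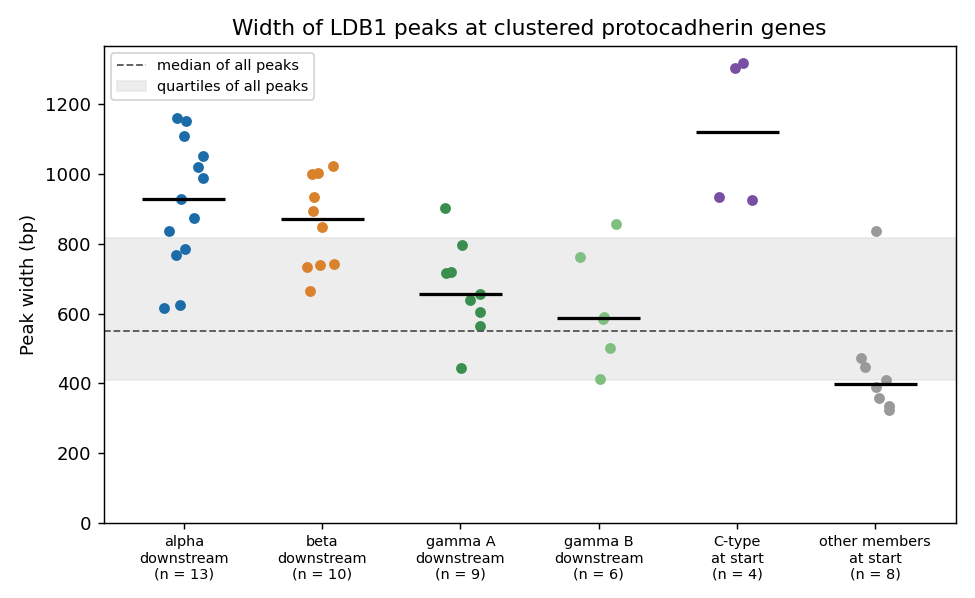
Width in bp of the downstream peaks of alpha, beta, gamma A and gamma B genes and of the peaks at the start of C-type genes and of other members; each point is 1 peak, black bars are medians, and the dashed line and grey band are the median and quartiles of all peaks. The 4 C-type points lie from 925 to 1318 bp, above all 8 start peaks of the other members.

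The alpha constant region held no peak, and the shared end of the gamma genes held 1. The RefSeq table lists the alpha constant region at chr5:140978949-141012344, and all 15 alpha genes end at 141012347. That region is 33.4 kb long, and the mean over windows of the genome was 17.3 peaks per Mb. An absence over so short a stretch therefore carries little weight. The gap between the peak at PCDHAC2 and the peak at PCDHB1 was 84.18 kb long and spanned the whole constant region and the stretch between the clusters. In mice an enhancer of the alpha cluster known as HS5-1 lies in the corresponding stretch after the constant exons; its position was not looked up here. The gamma constant exons have no entry of their own, so the 1 kb to either side of the shared end of the 22 gamma genes (141512975) stood for them, and the rest of these exons was not examined as such. A peak of 372 bp had its midpoint 388 bp before that end (chr5:141512402-141512773).

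Counted once each, the 63 peaks of the interval fell as follows. At the start of a member lay 12 (exact 95% interval of the share 10.2 to 30.9%), at the constant exons 1, in other parts of the members' bodies 42 (66.7%, 53.7 to 78.0%), in another gene 6 and between genes 2. Alpha genes share their end, as do gamma genes, so member bodies cover the whole of these 2 clusters. A peak there could not be counted in another gene or between genes, so the annotation largely sets the share in member bodies. Of the 42, 38 were the downstream peaks described above and 2 lay 1 to 2.5 kb after the start of a pseudogene. Of the 6 in another gene, 2 lay in the beta pseudogenes PCDHB18P and PCDHB19P, so pseudogene peaks are split between these classes. The pseudogenes of the clusters are no members; 4 of 6 had a midpoint 1 to 2.5 kb after their start, PCDHA14 at 1761 bp, PCDHB18P at 1852 bp, PCDHB19P at 1497 bp and PCDHGB8P at 1662 bp. That of PCDHB19P lay nearer to the start than in any member with a downstream peak. PCDHB17P and PCDHGB9P had none. Variable exons are related copies of each other, and how reads that align to several places were handled is not given, so the absence of a peak at a member is uncertain and the part of such reads in the pattern was not tested. A further 71 peaks lay on 8 alternate contigs of chromosome 5, and which of these copy the clusters was not looked up.

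Promoter sequence was compared because most members had no peak over it. RefSeq promoter windows on GRCh38.p14 (250 bases before to 50 after a start) were listed for 47 of the 53 members, in 52 windows, all on the plus strand. No window was listed for PCDHA3, PCDHA13, PCDHB6, PCDHB11, PCDHGA12 or PCDHGC5. For each motif or word, a member counted with a match in any of its windows, while the share of all windows counted each window singly. A peak overlapped the window of 4 members, PCDHAC1, PCDHAC2, PCDHGC4 and PCDHGB6. The core CGCT of the known conserved protocadherin promoter element was present on either strand in 46 of 47 members, the exception being PCDHA9, and in 70.0% of all 35116 windows of the table, so these 4 letters alone are common. Longer words differed between the clusters. The 8-letter word with CGCT that the most promoters of a cluster shared was ATGTCGCT in 9 of 13 alpha, GTGGCGCT in 13 of 14 beta and GCCGCTGT in 11 of 20 gamma members, and none of these words was in a promoter of another cluster. They were found in 0.234, 1.15 and 1.63% of all windows; being picked from these promoters, the words are a description.

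The following stretches of 40 bases, 5′ to 3′ on the plus strand with CGCT in capitals, show the element in alpha promoters, where it began 38 to 81 bases before the start (median 48); all 3 genes had a downstream peak.
PCDHA1 (chr5:140786084-140786123): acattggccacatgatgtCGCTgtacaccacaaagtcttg
PCDHA2 (chr5:140794779-140794818): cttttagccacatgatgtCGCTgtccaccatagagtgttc
PCDHA4 (chr5:140806977-140807016): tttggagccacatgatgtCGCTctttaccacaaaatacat

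In the beta promoters shown the bases before the core were ggtgg. PCDHB2, PCDHB3 and PCDHB5 had a downstream peak, and PCDHB4 and PCDHB16 had none.
PCDHB2 (chr5:141094542-141094581): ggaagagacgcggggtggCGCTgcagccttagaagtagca
PCDHB3 (chr5:141100391-141100430): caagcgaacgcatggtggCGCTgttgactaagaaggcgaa
PCDHB5 (chr5:141135177-141135216): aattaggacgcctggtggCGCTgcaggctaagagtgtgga
PCDHB4 (chr5:141121721-141121760): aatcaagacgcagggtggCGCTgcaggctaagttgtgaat
PCDHB16 (chr5:141182308-141182347): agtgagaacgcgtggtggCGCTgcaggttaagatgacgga

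In gamma promoters with the shared word the core began 40 to 95 bases before the start (median 65). PCDHGA1, PCDHGB1 and PCDHGA8 had a downstream peak, and PCDHGA7 and PCDHGB4 had none.
PCDHGA1 (chr5:141330401-141330440): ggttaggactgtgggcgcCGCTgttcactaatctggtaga
PCDHGB1 (chr5:141350023-141350062): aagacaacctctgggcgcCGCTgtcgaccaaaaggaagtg
PCDHGA8 (chr5:141392566-141392605): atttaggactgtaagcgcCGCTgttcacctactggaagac
PCDHGA7 (chr5:141382647-141382686): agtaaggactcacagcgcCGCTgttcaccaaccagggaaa
PCDHGB4 (chr5:141387615-141387654): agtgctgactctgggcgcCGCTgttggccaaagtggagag

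The alpha word was present in 9 of 11 alpha promoters of genes with a downstream peak. It was in 0 of 2 of genes without one, the C-type genes PCDHAC1 and PCDHAC2. The beta word was present in all 9 beta promoters of genes with a downstream peak and in 4 of 5 of genes without one, and the exception was PCDHB1. The gamma word was present in 6 of 14 gamma promoters of genes with a downstream peak and in 5 of 6 of genes without one. These 6 included PCDHGC3 and PCDHGC4, C-type genes with a peak at the start, and both had the word. None of these differences was tested, and they did not go the same way in the alpha and gamma clusters. For the C-type genes whose promoter window a peak overlapped, the 300 bases are shown with the part inside the peak in capitals. That part was 46 bases for PCDHAC1, 98 for PCDHAC2 and 142 for PCDHGC4. Another window listed for PCDHGC4, not shown, had 286 of its 300 bases inside the same peak.
PCDHAC1 (chr5:140926049-140926348): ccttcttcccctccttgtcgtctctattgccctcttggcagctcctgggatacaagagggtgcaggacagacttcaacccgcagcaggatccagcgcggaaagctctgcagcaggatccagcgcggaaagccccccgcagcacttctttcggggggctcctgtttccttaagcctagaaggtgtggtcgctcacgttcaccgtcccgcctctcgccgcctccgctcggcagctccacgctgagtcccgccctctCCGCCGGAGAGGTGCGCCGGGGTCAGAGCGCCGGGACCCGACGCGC
PCDHAC2 (chr5:140966226-140966525): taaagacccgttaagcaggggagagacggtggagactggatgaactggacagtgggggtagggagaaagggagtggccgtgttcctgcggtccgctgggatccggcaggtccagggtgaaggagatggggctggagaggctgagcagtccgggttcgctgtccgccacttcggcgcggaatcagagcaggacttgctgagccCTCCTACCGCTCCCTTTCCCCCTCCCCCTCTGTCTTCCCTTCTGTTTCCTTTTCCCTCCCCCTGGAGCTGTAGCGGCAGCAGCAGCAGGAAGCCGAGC
PCDHGC4 (chr5:141484780-141485079): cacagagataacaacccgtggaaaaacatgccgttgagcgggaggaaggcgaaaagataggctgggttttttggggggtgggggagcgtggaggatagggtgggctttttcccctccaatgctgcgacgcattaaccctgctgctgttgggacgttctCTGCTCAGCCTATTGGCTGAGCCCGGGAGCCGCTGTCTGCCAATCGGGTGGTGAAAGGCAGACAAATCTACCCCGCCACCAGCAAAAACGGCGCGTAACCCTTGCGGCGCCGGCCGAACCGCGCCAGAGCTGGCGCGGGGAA

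Motifs tied to LDB1 partners were searched in the same windows on both strands, and a match is not a binding site. Members were again counted by any of their windows and the background by single windows, so the 2 shares are not quite the same measure. GATAA, the core bound by GATA factors, was in 21 of 47 members (44.7%) and in 22.7% of all windows. By cluster it was in 3 of 13 alpha, 8 of 14 beta and 10 of 20 gamma members, so the higher share did not extend to the alpha cluster. CANNTG, the E-box bound by basic helix-loop-helix proteins, was in 28 of 47 (59.6%) and 68.7%. The joint E-box and GATA motif of the LDB1 complex was in 1 of 47 (2.13%) and 1.87%. Among CTCF-like letters, GNGGCGCT, which contains GGCGCT and CGCT, was in 17 of 47 (36.2%) and 8.91%, of which 13 were beta promoters, and GGCGCT was in 23 of 47 (48.9%) and 21.7%. CCCTC was in 14 of 47 (29.8%) and 71.2%. The sequence under the downstream peaks lies outside these windows and was not analysed here.

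The neighbours of the clusters had few peaks inside the interval. With flanks of 200 kb in place of 100 kb the count of peaks rose from 63 to 86, so this holds for the near flanks only. A peak of 327 bp lay inside HARS2 near its start. HARS1 and HARS2, which encode histidyl-tRNA synthetases, are read in opposite directions, and the midpoint lay 304 bp from the HARS1 and 219 bp from the HARS2 start. ZMAT2 and TAF7, which encodes a subunit of the general factor TFIID, had none at their starts, with the nearest midpoints 8.77 and 11.8 kb away. The peak between the beta and gamma clusters, of 1104 bp, reached across an end of SLC25A2, a mitochondrial carrier gene (chr5:141303532-141304635). In DIAPH1, a formin gene that follows the gamma cluster, peaks of 408 and 423 bp lay inside the interval. The DIAPH1 start lies past the interval, and it had a peak midpoint 77 bp away.

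The interval as a whole was denser in peaks than most of the genome. Its 63 peaks compare with a median of 7 (quartiles 3 and 18, maximum 271) in 3258 consecutive windows of the same length, of which 173 (5.31%) held as many or more. The density was 68.0 peaks per Mb, against a mean of 17.3 per Mb over these windows, a ratio of 3.93. The interval also held 58 protein-coding gene starts. In the 23 windows with at least 40 gene starts the median was 83 peaks (range 6 to 173), and 15 held as many as the interval or more. Windows that overlap the interval were not left out of these counts. A window that covers most of the interval is among the 23, the 15 and the 173 windows above. The interval was therefore compared in part with itself. Per protein-coding gene the density ratio turned to 0.411.

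**Figure D5:**
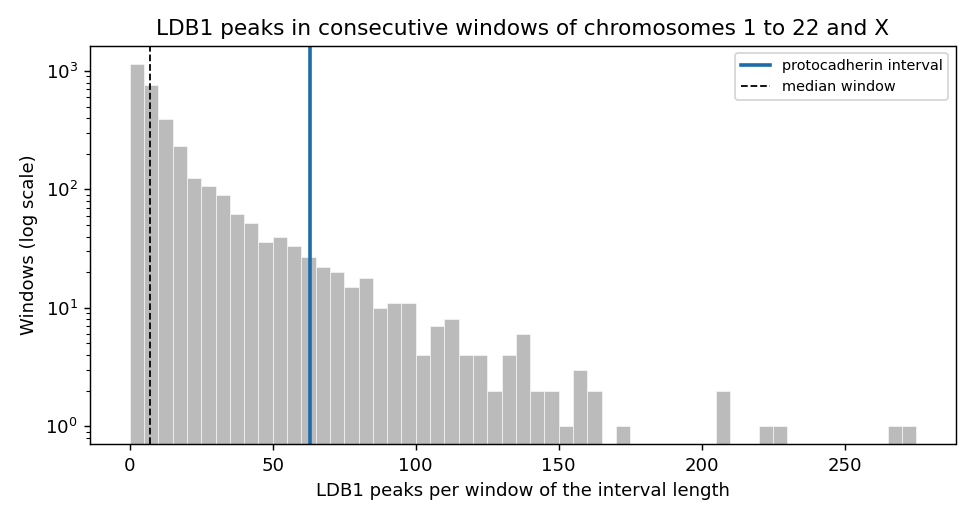
Number of consecutive windows (log scale) by the number of LDB1 peaks they hold, for windows of 926.8 kb on chromosomes 1 to 22 and X; the blue line is the protocadherin interval and the dashed line the median window. The interval with 63 peaks stands to the right of the median of 7, and windows with up to 271 peaks lie beyond it.

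Related genes elsewhere were counted for peaks in the gene or within 10 kb of it, which 70.1% of all protein-coding genes had. Of 12 non-clustered protocadherin genes, 9 (75.0%) had one. PCDH1 had 9 peaks and PCDH15, a gene of hair cells and of great length, had 7, while PCDH10, PCDH18 and PCDH20 had none. At the start 3 of the 10 with a known strand had a midpoint (30.0%), against 31.8% of all protein-coding genes with a known strand. Downstream 3 of the 10 had one, namely PCDH1, PCDH7 and PCDH19, against 8.51% of all. A downstream midpoint was also found at 3 of 5 other large cadherin genes with a known strand. The same count was 1 of 10 for classical cadherin genes and 0 of 11 for genes of factors known to act on the clusters. Of 9 other large cadherin genes 8 had a peak, led by CELSR1 with 19 and CELSR2 with 10, and FAT4 had none. Of 19 classical cadherin genes 15 had a peak, with 31 at CDH4 and 9 at CDH15, and CDH9, CDH10 and CDH12 were among those without. All 13 genes of factors known to act on the clusters had at least 1 peak, with a median of 1. CTCF had 1, of 429 bp. Of 10 granulocyte and promyelocyte marker genes 9 had a peak within 10 kb, which does not check the cell type label, since most genes had one.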

How the data were processed

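CUT&Tag with an LDB1 antibody was analysed in 1 library of untreated NB4 cells. The peak positions and widths in bp, which the authors deposited and which per the file headers are chromosome, start, end and length, were read as given; starts and ends count from 1. Per the submitters' processing notes the build was hg38, and Bowtie2 2.4.1 and MACS2 2.0.10 were named. The threshold, control and treatment of reads that align to several places are not given, and the depth is unknown.

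Peak midpoints were set against gene starts of the RefSeq table (GRCh38.p14), with the strand from the RefSeq promoter table; the 6 members with no entry there were given the plus strand of all other members. Distances are to the start of the gene table. Each peak was counted once, first at a start (within 1 kb), then at constant exons, in other member bodies, in another gene, and between genes. Shares carry exact (Clopper-Pearson) 95% intervals. A single LDB1 library allows no comparison between samples, so p-values were not computed. Named genes were the first and last of each cluster, C-type genes, genes by their start or downstream peaks, the widest peaks, neighbours, and list members with the most or no peaks; PCDHA8, PCDHA10, PCDHB2, PCDHB8, PCDHB12 and PCDHB13 were named as extremes after their values were seen. The members, lists and motifs were chosen with earlier results of these data known. A gene that this rule allowed is not reported here. The search for a peak in a stretch around a start was checked with simulated peaks planted at set distances from known gene starts. The sorting of peaks into classes was not checked in this way. Python 3.11.15, pandas 2.3.3 and scipy 1.17.1 were used.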

Additional observations from a re-analysis of the deposited data

How the results depend on the processing

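With the widest 50% of all peaks (at least 550 bp) the downstream count was 35 of 53 members, against 5.01% of all genes, and with the widest 25% it was 17, against 2.74%; the members with a peak at the start came to 5 under both, against 20.2 and 11.4%. With the widest 50% the gamma cluster held 16 peaks and the alpha cluster 16, the constant exons 0, other genes 2 and the sequence between genes 1; with the widest 25% the interval held 24, alpha 12, beta 6, gamma 5, other member bodies 18, other genes 0, constant exons 0 and between genes 1. The density ratio was 5.62 and 5.99 with these lists and turned to 0.411 per protein-coding gene. A distance of 2500 bp to a start gave 45 members and 50 peaks at starts and left 4 peaks in other member bodies, since it takes in the downstream stretch. By any overlap, 1 peak lay between genes. The other 44 values changed by less than 1.5 times or stayed inside their interval. Among them were the downstream counts with 1.5 to 2.2 kb (38), any overlap (40) and the starts of the promoter table (38). These 3 settings were chosen after seeing the data. The count by any overlap takes in the C-type genes PCDHAC1 and PCDHGC3, whose start peaks reach into the stretch. No paired analysis was possible because there is 1 library per antibody. Peak number and width move with depth and with the caller's threshold, which are unknown.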
